A study of Drosophila melanogaster with 80 samples.

Results

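Male flies of the F2 generation that ate a high-sucrose diet were compared by what their F0 male ancestors had eaten. The 8 arrays are 4 of HSD-fed F2 males of HSD ancestry (descended from F0 males kept on the high-sucrose diet, HSD, 1 M sucrose) and 4 of HSD-fed F2 males of CD ancestry (descended from F0 males kept on the control diet, CD, 0.15 M sucrose). They were chosen by their labels out of 80 arrays, and they share a batch label. All were whole adult males of Oregon R, a laboratory wild-type strain, unmated and aged 3 to 4 days at the start of 14 days on HSD at 25 °C. Flies lived 30 to a vial. Nothing in the labels tells whether each array of a group had its own vial, and p-values then measure only the spread among these arrays, which could be technical. The diet of the F1 parents is not given either. Below, ancestry means the F0 male diet, and a change is the mean log2 signal in HSD ancestry minus that in CD ancestry.

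In Drosophila the sex-determination pathway keeps yolk protein genes low in males and high in females, where the fat body and the follicle cells of the ovary secrete yolk that the oocyte takes up. Nurse cells load the oocyte with maternal mRNAs, and follicle cells cover it with the vitelline membrane and chorion. In adults on sugar-rich food, digestive enzymes of the midgut, the transcription factor sugarbabe and enzymes of fat synthesis are known to respond to the diet.

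The values are deposited log2 signals, and those of the 8 arrays were normalized together and apart from other sets. Male genes were bright on all 8 arrays, which cannot tell whether female flies or tissue were present as well. The seminal fluid gene SP (sex peptide) lay between 12.27 and 12.45, the sperm gene Mst87F between 11.29 and 11.55, and the testis tubulin gene betaTub85D between 11.36 and 11.45. Pairs of the 8 arrays correlated at 0.987 to 0.998 over the genes tested, and no 2 arrays held the same values. Of 11982 named genes 10920 were bright enough to be tested.

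Few genes differed between ancestries, and most of those that did are limited to females. With limma, 21 genes were higher in HSD ancestry (0.192% of those tested) and 1 was lower (0.00916%) at a Benjamini-Hochberg adjusted p under 0.05. Both directions together made 0.201%, and 800 genes (7.33%) had an unadjusted p under 0.05. With 1 array left out the 22 calls became as few as 8, without replicate 3 of CD ancestry, and as many as 31, without replicate 3 of HSD ancestry. Genes were then grouped by their sex difference in CD-fed F0 flies, which these 8 arrays did not enter. The F0 females and the F0 males were normalized as separate sets, with set medians of 5.46 and 6.64. The sex differences and the class limits therefore cross sets. Female-limited genes, at least 5 log2 units higher in females, gave 18 of the 21 rises. Female-biased genes, 1 to 5 units higher in females, gave 1 (CG14499), and genes within 1 unit of equality gave 2 (Jon66Ci and CG34236). The fall was CG8329, a male-biased gene, and none of the 652 male-limited genes passed.

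The 78 female-limited genes stood higher on every HSD-ancestry array than on any CD-ancestry array. Their mean log2 signal was 4.98, 5.29, 4.77 and 5.09 on replicates 1 to 4 of HSD ancestry, against 4.39, 4.40, 4.41 and 4.41 on those of CD ancestry. Replicate 3 is the lowest of the HSD-ancestry arrays and still lay 0.36 above the highest CD-ancestry array, and the CD-ancestry arrays differed by hundredths of a unit. The means were 5.03 ± 0.22 in HSD ancestry and 4.40 ± 0.009 in CD ancestry (SD, n = 4 each). Of the 78 genes 75 had a mean above that of CD ancestry, 45 had all 4 HSD-ancestry arrays above all 4 of CD ancestry, 33 overlapped and 0 were lower throughout. Over all genes 3.8% were higher without overlap and 2.09% lower. The median change was 0.43 over the 78 genes and 0.01 over all genes tested. Of the 78 genes 59 were tested, 19 of them bright enough only in HSD ancestry. Among the 40 that passed the brightness filter in both groups 15 rose. The other 3 called, osk, Pxt and yl, passed it through HSD ancestry alone and so had to differ. The male-limited genes averaged 9.23 ± 0.04 in HSD ancestry and 9.27 ± 0.03 in CD ancestry, and these groups overlapped.

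**Figure D1:**
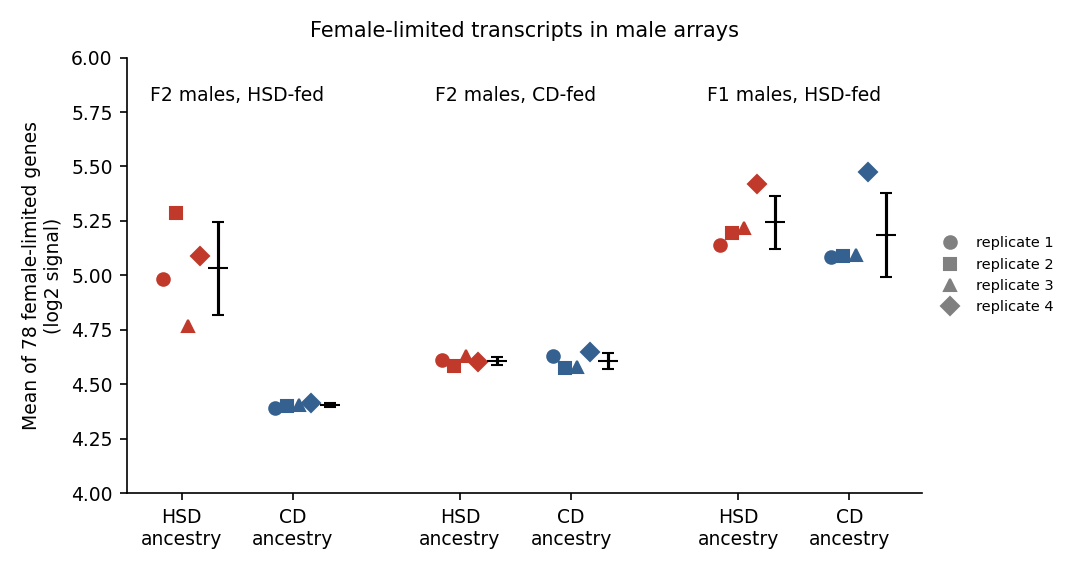
Mean log2 signal of the 78 female-limited genes on each male array, by generation, own diet and ancestry. Points are arrays, with the replicate number as the shape, and bars are the mean and SD of 4 arrays. In HSD-fed F2 males the HSD-ancestry arrays lie between 4.77 and 5.29 and the CD-ancestry arrays between 4.39 and 4.41, while the ancestries overlap in the other sets, each of which was normalized on its own.

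Whether these transcripts came from female flies or tissue among the males, or from the males themselves, was not tested. In whole flies more cells of a type and more RNA per cell cannot be told apart. No such split by ancestry was seen in the other male sets described here. CD-fed F2 males had female-limited means of 4.59 to 4.63 in HSD ancestry and 4.58 to 4.65 in CD ancestry. In HSD-fed F1 males the mean was as high as in the HSD-fed F2 males of HSD ancestry, but in both groups and in a set normalized on its own, at 5.14 to 5.42 in HSD ancestry and 5.08 to 5.47 in CD ancestry.

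All 3 yolk protein genes rose. Yp1 had log2 signals of 9.78, 10.14, 9.13 and 9.87 in HSD ancestry, against 7.92, 7.82, 7.97 and 8.08 in CD ancestry. The groups lay more than 1 unit apart, with replicate 2 the highest and replicate 3 the lowest of HSD ancestry. The change was 1.78 (SE 0.18, limma adjusted p = 0.00397), and it was 1.76 (SE 0.17) for Yp2 and 1.48 (SE 0.17) for Yp3. Yp2 averaged 9.05 ± 0.42 in HSD ancestry and 7.29 ± 0.05 in CD ancestry, and Yp3 averaged 9.25 ± 0.41 in HSD ancestry and 7.77 ± 0.10 in CD ancestry (SD, n = 4). The gene yl (yolkless), the oocyte's yolk receptor, was dim in both groups, with a mean of 4.40 ± 0.06 in HSD ancestry and 3.86 ± 0.02 in CD ancestry, and rose by 0.54 (SE 0.05). It passed the brightness filter through HSD ancestry alone and so had to be higher there.

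Genes of the oocyte and its maternal mRNA store held the largest changes. dhd (deadhead) encodes a thioredoxin of the egg that acts on sperm chromatin after fertilization. Its log2 signals were 9.06, 9.59, 8.12 and 9.34 in HSD ancestry, against 5.15, 5.36, 5.31 and 5.28 in CD ancestry. The groups lay far apart, with the lowest HSD-ancestry array at 8.12 and the highest CD-ancestry array at 5.36, and the change was 3.75 (SE 0.26, limma adjusted p = 0.000602). The probe set of CycB, which encodes the mitotic cyclin B, read 7.86, 8.50, 7.18 and 8.26 in HSD ancestry, against 5.69, 5.53, 5.49 and 5.39 in CD ancestry, a change of 2.42 (SE 0.23, adjusted p = 0.00397). osk (oskar), the organiser of the germ plasm, read 6.4, 7.08, 4.99 and 6.66 in HSD ancestry, against 3.77, 3.81, 4.00 and 3.84 in CD ancestry. Replicate 3 was again nearest to CD ancestry, and the change in osk was 2.43 (SE 0.36, adjusted p = 0.0307). The other 2 probe sets of osk differed by 2.65 and 1.12.

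Of 45 tested genes in a list of oocyte and germline genes 6 rose and 0 fell, with a median change of 0.23, while 0.192% of all genes tested rose. Of the 49 list genes on the array 43 belong to a female class. List genes that passed the brightness filter through HSD ancestry alone, osk among them, could not fall, and their number was not counted. Besides dhd, osk and CycB the genes that rose were mtrm (matrimony), gnu and alphaTub67C. The gene mtrm, for an inhibitor of Polo kinase in the oocyte, averaged 6.28 ± 0.36 in HSD ancestry and 4.91 ± 0.24 in CD ancestry. Its change was 1.37 (SE 0.17). The egg-activation kinase subunit gene gnu rose by 0.93 and the maternal tubulin gene alphaTub67C by 1.02. Outside the list the germline innexin gene zpg rose by 0.79 and the oocyte RNA regulator gene Marf1 by 1.42. A second Marf1 probe set, with no sex difference in F0 flies, differed by -0.08. nanos, the translational repressor of the posterior pole, averaged 5.78 ± 0.80 in HSD ancestry and 3.98 ± 0.17 in CD ancestry without overlap. It too passed the brightness filter through HSD ancestry alone and so had to be higher there. Its change of 1.80 (SE 0.32, adjusted p = 0.0831) did not pass, and its HSD-ancestry arrays spread from 4.61 to 6.30.

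**Figure D2:**
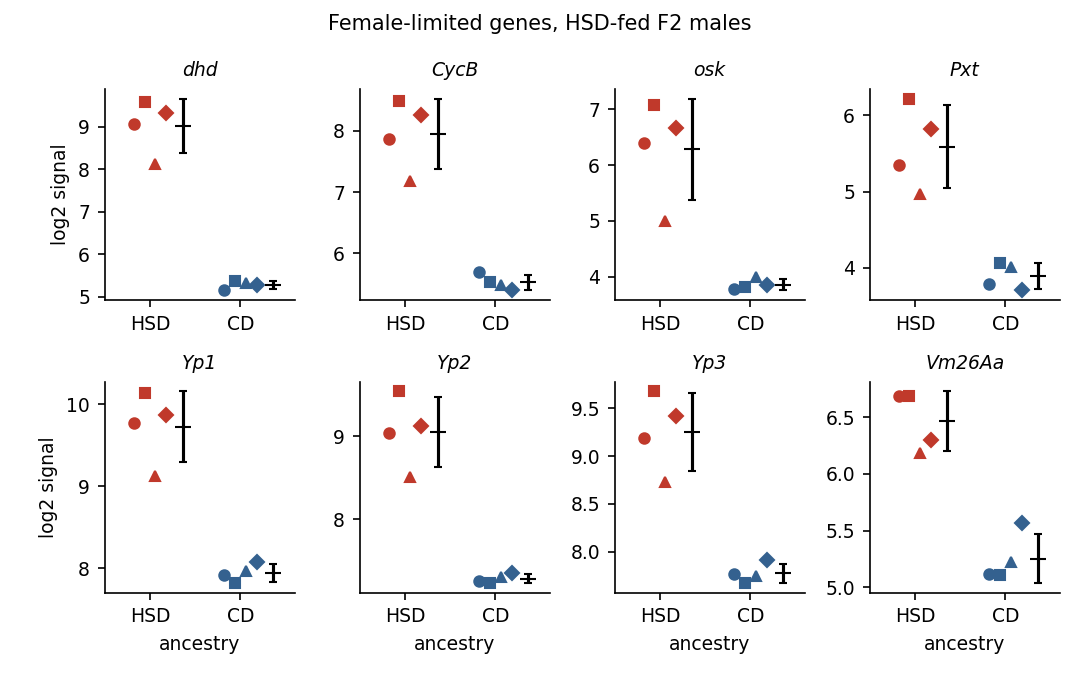
Log2 signal of 8 female-limited genes on the 4 arrays of HSD ancestry (left) and the 4 of CD ancestry (right) in HSD-fed F2 males, each panel on its own scale. Shapes are replicates 1 (circle), 2 (square), 3 (triangle) and 4 (diamond), and bars are mean and SD. The groups do not overlap in any panel, and in dhd the HSD-ancestry arrays lie between 8.12 and 9.59. Of the 8 genes, osk and Pxt passed the brightness filter through HSD ancestry alone.

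A few eggshell and follicle-cell genes rose, by less than dhd. Vm26Aa, a vitelline membrane protein gene, read 6.69, 6.69, 6.18 and 6.30 in HSD ancestry, against 5.12, 5.10, 5.22 and 5.57 in CD ancestry, a change of 1.21 (SE 0.14, adjusted p = 0.00842). Its relative Vm34Ca rose by 0.95 (SE 0.12). These were 2 of 18 eggshell genes tested, none of which fell, and the median of the list was 0.35. Of its 23 genes on the array 22 belong to a female class. Any gene of this list that passed the brightness filter through HSD ancestry alone could not fall, and such genes were not counted. Of all genes tested 0.192% rose, and of the female-limited genes tested 30.5%. Among 10 follicle-cell genes tested 1 rose, Pxt, a peroxidase of the follicle cells with a role in prostaglandin synthesis. Pxt averaged 5.59 ± 0.55 in HSD ancestry and 3.89 ± 0.17 in CD ancestry, a change of 1.70 (SE 0.23). It passed the brightness filter through HSD ancestry alone and so had to be higher there. The median of the follicle-cell list was 0.03. Fad2, the desaturase of female cuticular pheromones, acts in oenocytes and not in the ovary. It averaged 5.08 ± 0.25 in HSD ancestry and 4.20 ± 0.11 in CD ancestry, and rose by 0.88 (SE 0.12). Its partner in the same cells, the elongase gene eloF, had a change of 0.42 (SE 0.11, adjusted p = 0.298) without overlap. The remaining female-limited rises were CG11674 (0.56) and 1 of the 15 probe sets of lola, a transcription factor gene with many isoforms (0.94, against -0.23 to 0.09 for the others).

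The size of the difference followed sex bias beyond the female-limited class. The median change was 0.05 for tested genes 1 to 2 log2 units higher in F0 females, 0.07 at 2 to 3, 0.14 at 3 to 4 and 0.23 at 4 to 5 units. It was 0.33 at 5 to 6 units, 0.66 at 6 to 7, 0.94 at 7 to 8 and 1.08 above 8. Of the 59 tested genes above 5 units, 19 passed the brightness filter through HSD ancestry alone and so had to be higher there. Among the genes 4 to 5 units higher in F0 females, 59 of 62 had a change above 0, as against 191 of the 652 male-limited genes, whose median was -0.04. Genes that passed the filter through HSD ancestry alone were not counted in the bins below 5 units. Any among these 62 had to be above 0. Of the named female-biased genes below the limit, the ribonucleotide reductase gene RnrL (0.56), the ovary-enriched ribosomal protein gene RpS5b (0.52) and the Greatwall kinase gene gwl (0.51) did not overlap between groups, nor did they pass the test. Replicate 2 had the largest median in every bin, the male-biased and male-limited ones included. In male-limited genes it had 0.0569, against -0.0749, -0.055 and -0.0565 on replicates 1, 3 and 4. Replicate 3 had the smallest median in every bin above 1 unit.

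**Figure D3:**
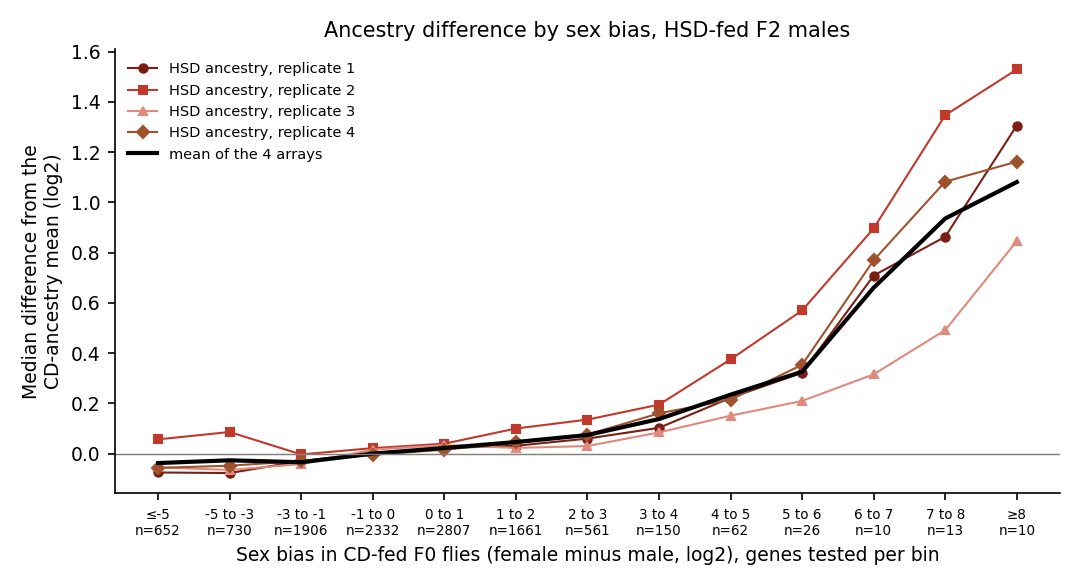
Median difference from the CD-ancestry mean (log2, vertical axis) for tested genes binned by their sex difference in CD-fed F0 flies (horizontal axis, with the number of genes). Coloured lines are the 4 HSD-ancestry arrays and the black line is the change of their mean. The change of the mean increases from 0.05 at 1 to 2 units to 0.23 at 4 to 5 units. Above 5 units 19 of the 59 genes passed the brightness filter through HSD ancestry alone and had to be higher there. Such genes were not counted in the lower bins.

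Many female-limited genes ranked the HSD-ancestry arrays alike. Replicate 2 was the highest of the HSD-ancestry arrays in 55 of the 78 genes and in 16 of the 18 that rose, and replicate 3 was the lowest in 49 of the 78 and in 17 of the 18. The same counts over all genes were not taken, and replicate 2 had the largest median in male-biased genes as well. The excess over CD ancestry was set against the level in HSD-fed F2 females of CD ancestry on the linear scale. The median of the 78 genes was 0.319%, 0.623%, 0.242% and 0.424% of the female level on replicates 1 to 4. For dhd it was 3.23%, 4.78%, 1.56% and 3.97%. These percentages cross sets normalized separately, and dim signals carry background, so they allow no comparison between probe sets, and only their order among the 4 arrays is within a set.

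Outside both female classes 3 of 8427 genes tested passed, 2 higher and 1 lower, and 502 had an unadjusted p under 0.05 (230 higher, 272 lower, 5.96%). Jon66Ci, a Jonah serine protease of the midgut, read 9.32, 9.43, 9.32 and 9.21 in HSD ancestry, against 9.0, 8.88, 8.92 and 8.82 in CD ancestry. The groups did not overlap, and the change was 0.41 (SE 0.06, adjusted p = 0.0463). CG34236 read 7.91, 7.92, 8.0 and 7.90 in HSD ancestry, against 7.60, 7.51, 7.55 and 7.62 in CD ancestry, a change of 0.36 (SE 0.05, adjusted p = 0.0279). The SD was 0.05 in both groups, and they did not overlap.

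CG8329, a predicted serine-type endopeptidase, was the only gene that fell in the fit of these 8 arrays. With array weights 19 of the 91 genes called were lower, and in a fit of all 80 arrays 55 of 320 were. CG8329 read 10.49, 10.35, 10.59 and 10.51 in HSD ancestry, against 11.03, 11.02, 11.10 and 11.06 in CD ancestry, a change of -0.57 (SE 0.06, adjusted p = 0.00679). The female-biased gene CG14499, 1.11 units higher in F0 females, read 7.71, 7.45, 7.78 and 7.77 in HSD ancestry, against 6.83, 6.33, 6.91 and 6.66 in CD ancestry, a change of 1.00 (SE 0.13, adjusted p = 0.0147). Replicate 3 was the HSD-ancestry array nearest to CD ancestry in CG8329 and the farthest from it in CG34236 and CG14499.

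The call of Jon66Ci and of CG34236 rests on thin margins. With any 1 of the 8 arrays left out, Jon66Ci passed in 1 of 8 fits and CG34236 in 1 of 8, with adjusted p up to 0.19 and 0.17. Neither passed with the replicate number as a block (adjusted p = 0.143 for Jon66Ci and 0.198 for CG34236) or when female-limited genes were left out of the test (0.221 and 0.163), where CG8329 (0.039) was the only gene called. CG8329 passed in 8 of 8, and CG14499 in 5 of 8. When the female-limited mean of each array was a term in the fit, 0 genes passed with limma, and 1347 (12.3%) had an unadjusted p under 0.05. That fit separates ancestry poorly, because the term nearly repeats the groups. The median SE was 0.178, against 0.077 without it.

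**Figure D4:**
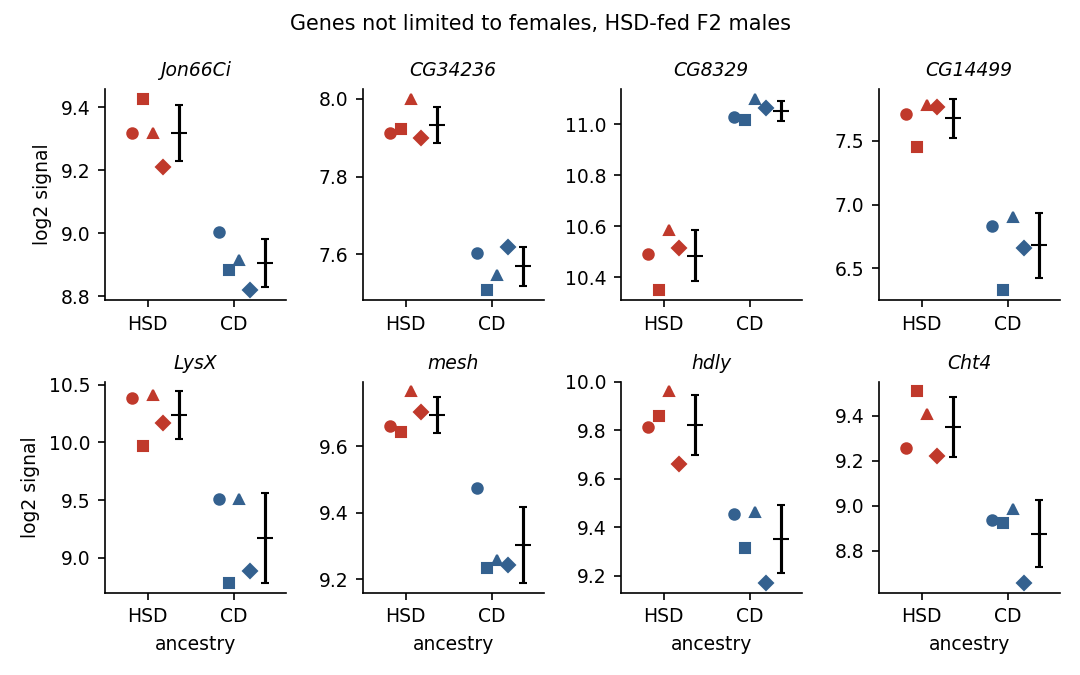
Log2 signal of 8 genes that are not female-limited, on the 4 arrays of HSD ancestry (left) and the 4 of CD ancestry (right) in HSD-fed F2 males, each panel on its own scale. Shapes are replicates 1 (circle), 2 (square), 3 (triangle) and 4 (diamond), and bars are mean and SD. Jon66Ci, CG34236, CG8329 and CG14499 passed the test, and LysX, mesh, hdly and Cht4 did not, although no panel shows overlap.

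Sugar and fat genes showed no change past the test. sug, which encodes the sugar-responsive factor sugarbabe, read 8.72, 9.16, 8.93 and 8.75 in HSD ancestry, against 8.78, 8.75, 8.90 and 8.84 in CD ancestry, a change of 0.07 (SE 0.09). The sugar-responsive glucosidase gene tobi had -0.03 (SE 0.05), the amylase-related gene Amyrel 0.02 (SE 0.07), the maltase gene Mal-A1 0.003 (SE 0.05) and the hexokinase gene Hex-C 0.008 (SE 0.06). In fat metabolism the fatty acid synthase gene FASN1 had -0.06 (SE 0.06), ACC, for acetyl-CoA carboxylase, -0.07 (SE 0.09) and the lipase gene bmm (brummer) -0.12 (SE 0.06). The gluconeogenic gene Pepck1 had -0.04, the insulin antagonist gene ImpL2 0.03 and the stress gene TotC -0.22 (SE 0.20). All of these overlapped between ancestries. So did 3 genes that answered the diet itself in F0 males, the carboxypeptidase gene CG12374 (0.16), the Jonah protease gene Jon99Fi (-0.04) and the glycine dehydrogenase gene CG3999 (0.11).

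The gene lists of sugar and fat metabolism held no gene past the test. These were 25 sugar digestion genes tested, 15 of glycolysis and the pentose phosphate pathway, 10 of gluconeogenesis and glycogen, 22 of fatty acid and triglyceride synthesis, 18 of lipolysis and β-oxidation, 18 of insulin, Akh and FoxO signalling and 12 of the sugar response. Their medians lay between -0.05 and 0.03. Without overlap, sugar digestion had 1 gene higher and 3 lower, and fatty acid and triglyceride synthesis had 1 higher and 0 lower. Lipolysis and β-oxidation had 1 higher and 1 lower, and insulin, Akh and FoxO signalling 0 higher and 1 lower. The lists of glycolysis, gluconeogenesis and the sugar response had none. None passed among 44 testis and 31 accessory gland genes, with medians of -0.01 and 0.01. Of 30 midgut protease and lysozyme genes 1 rose, Jon66Ci, 5 were higher without overlap and 0 lower, and the median was 0.05. The 26 proteasome genes had a median of 0.10, with 5 higher without overlap, and the 69 mitochondrial ribosome genes, 35 of them in a female class, had 0.09, with 7. No member of either passed. Among 34 genes of DNA replication and the cell cycle, 32 of them in a female class, CycB rose and the median was 0.18. All tested genes together had 4.04% higher and 2.17% lower without overlap, and 0.192% rose past the test. No member passed in 37 of the 43 lists, the exceptions being the yolk, oocyte, eggshell, follicle cell, midgut and cell cycle lists. With limma, 800 of all genes tested had an unadjusted p under 0.05.

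The genes outside the female classes were then followed in HSD-fed F2 females, whose arrays are separate. The 20 with the smallest p in males were taken after their values had been seen. Of the 19 with a value in HSD-fed F2 females, 18 had the same sign there, and 9 passed the test in females, all with the same sign. In that comparison 84 genes passed of 10353 tested (0.811%). In CD-fed F2 males the sign was the same for 7 of 20, and 5 of the 20 passed there, 1 of them with the same sign. Of all genes tested there 2.99% passed. In HSD-fed F1 males the sign was the same for 4 of 20. None of the 20 passed there, where 0 of all 10911 genes tested did. Over all genes outside the female classes with a value in both, the sign was the same for 50.1% in HSD-fed F2 females. It was the same for 54% in CD-fed F2 males and 53.5% in HSD-fed F1 males.

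LysX, a lysozyme gene, read 10.39, 9.97, 10.41 and 10.17 in HSD-ancestry males, against 9.51, 8.78, 9.51 and 8.89 in CD-ancestry males. Its change was 1.06 (SE 0.18, adjusted p = 0.066) in males and 0.78 (adjusted p = 0.0373) in females. mesh, which encodes a septate junction protein of the gut, had 0.39 in males and 0.50 in females, and the chitinase gene Cht4 had 0.47 in males and 0.61 in females. hdly had 0.47 in males and 0.59 in females. All 3 passed in females and not in males, where the adjusted p was 0.0714 for mesh, 0.108 for Cht4 and 0.0894 for hdly. Second probe sets in males gave -0.04 for mesh, at a dim signal, and 0.14 for hdly. CG8329 had -0.57 in males and -0.44 in females, where it did not pass (adjusted p = 0.12). Jon66Ci and CG34236, which passed in males, had 0.07 (adjusted p = 0.687) and 0.31 (adjusted p = 0.133) in females. CG7102 had the opposite sign in females, with 0.33 in males and -0.14 in females. CG14499, the female-biased gene, had 1.00 in males and 0.94 in females. Acbp6, for an acyl-CoA-binding protein, is female-biased as well and had 0.68 in males (adjusted p = 0.138) and 0.73 in females, and CG31041 of the same class had 0.53 in males (adjusted p = 0.198) and -0.16 in females.

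**Figure D5:**
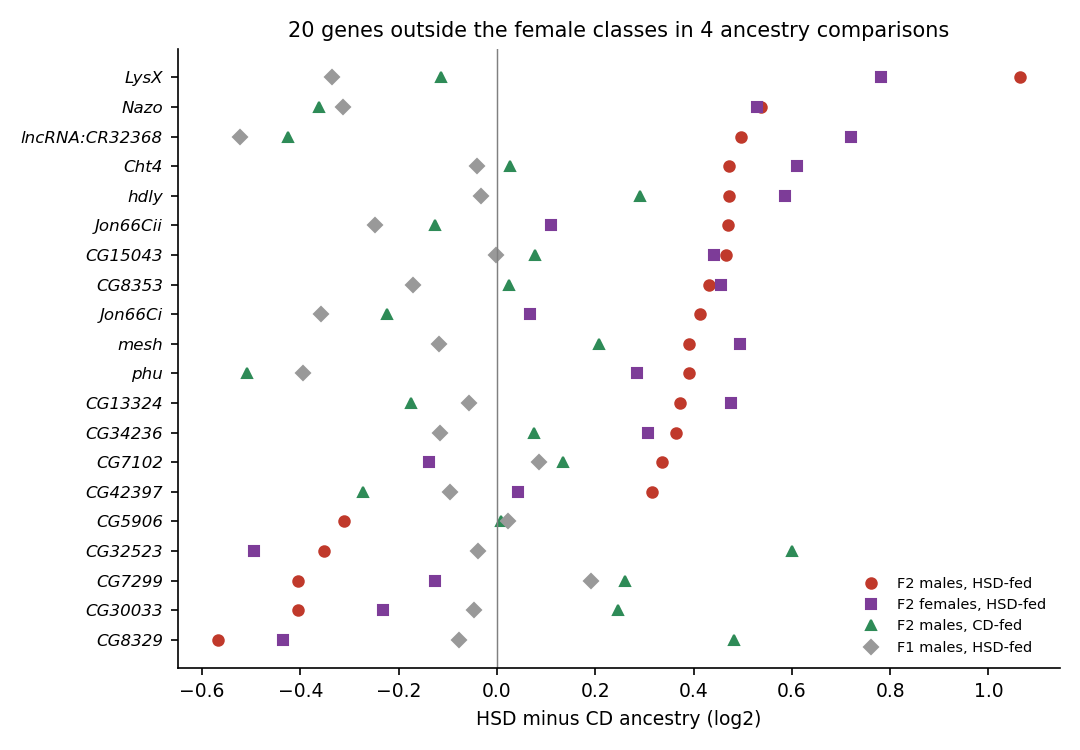
Change with ancestry (HSD minus CD ancestry, log2) of the 20 genes outside the female classes with the smallest p in HSD-fed F2 males, in 4 comparisons made on separate arrays. In HSD-fed F2 females 18 of the 19 points lie on the same side of 0 as in HSD-fed F2 males, against 7 of 20 in CD-fed F2 males and 4 of 20 in HSD-fed F1 males. Over all genes outside the female classes these shares were 50.1%, 54% and 53.5%, in the same order.

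Seen from the females, 69 genes outside the female classes passed there, 41 higher and 28 lower in HSD ancestry. Of the 41 higher ones, 37 had a change above 0 in HSD-fed F2 males and 15 were higher there without overlap, with a median of 0.16. Of the 27 lower ones tested in males, 12 were below 0 and 1 was lower without overlap, with a median of 0.01. Among all 8427 genes outside the female classes tested in males, 226 were higher and 227 lower without overlap. Over the 7430 such genes tested in both sexes the signs were the same for 50.1%, and the changes correlated at 0.159 (Pearson, across genes, which are not independent replicates). For the 443 with an unadjusted p under 0.05 in males the signs were the same for 60.7%. Males and females of an ancestry may share parents, and the labels do not say so.

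The change with ancestry in HSD-fed F2 males was set against that in CD-fed F2 males, in a fit of all 16 arrays, in which own diet and batch cannot be told apart. In CD-fed F2 males themselves 327 genes passed (2.99%), 234 higher and 93 lower. The difference between the 2 changes passed for 103 genes (0.925%). HSD-fed males had the higher value in 58 (0.521%) and the lower value in 45. Female-limited genes, 59 of the 11138 tested, made 24 of the 58 and none of the 45. In this fit osk, nanos, Pxt and yl passed the brightness filter through HSD-fed males of HSD ancestry alone. Such genes had to be higher there than in HSD-fed males of CD ancestry, and their number among the 24 was not counted. dhd differed by 3.84 (SE 0.33, adjusted p = 8.33e-05), with a change of 3.75 in HSD-fed and -0.09 in CD-fed males. The 5313 unbiased genes tested were split evenly, with 18 higher and 18 lower, and the 2666 male-biased genes tested gave 3 higher and 24 lower. All 11138 genes tested gave 58 higher and 45 lower.

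Among genes outside the female classes, chosen after their values were seen, several had changes of opposite sign on the 2 diets. CG8329 had -0.57 in HSD-fed and 0.48 in CD-fed males, a difference of -1.05 (limma adjusted p = 0.000223). CG7829 had -0.53 in HSD-fed and 0.60 in CD-fed males (difference -1.13, adjusted p = 0.00492), and its second probe set had -0.20 in HSD-fed males. For sug the difference was 0.91 (adjusted p = 0.0133), with 0.07 in HSD-fed and -0.83 in CD-fed males, and for bmm it was -0.42 (adjusted p = 0.0165), with -0.12 in HSD-fed and 0.30 in CD-fed males. In both of these the change that passed on its own was the one in CD-fed males.

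Against HSD-fed F1 males, where 0 genes passed for ancestry with limma (1274, or 11.7%, at an unadjusted p under 0.05), the difference passed for 14 genes (0.127%). The 10 with the higher value in F2 (0.0907%) included 6 female-limited genes, among them CycB (2.25), Yp1 (1.83), Yp2 (1.78) and Yp3 (1.54), beside Jon66Ci (0.77, adjusted p = 0.00396), Jon66Cii (0.72, adjusted p = 0.0161), phu (0.78) and lncRNA:CR32368 (1.02). CG8329 (-0.49) and the clock gene tim (-0.37) were among the 4 lower ones. Jon66Ci had a change of 0.41 in F2 and -0.36 in F1 males. Against HSD-fed F2 females the difference passed for 62 genes (0.546%), 55 with the higher value in males (0.485%), of which 35 were female-limited. The female-limited mean itself differed by ancestry in those females, at 10.59 ± 0.05 in HSD ancestry, from 10.54 to 10.64, and 10.78 ± 0.02 in CD ancestry, from 10.77 to 10.81 (SD, n = 4 each). The groups did not overlap, HSD ancestry was the lower one, and the part of this in the male minus female differences was not tested.

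The F0 generation shows what the diet itself did in males, where 3362 genes passed (30.7%), 2144 higher and 1218 lower on HSD. Of 482 genes outside the female classes with an unadjusted p under 0.05 for ancestry and a value in both, 186 (38.6%) had the sign of the F0 diet change, against 45.6% of all 8282 such genes. CG14499 had -1.28 for diet in F0 males and 1.00 for ancestry in HSD-fed F2 males. CG8329 had -0.55 for diet and -0.57 for ancestry.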

How the data were processed

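Whole-fly RNA (250 ng per array) was measured on Affymetrix Drosophila Genome 2.0 arrays. Per the submitters' processing notes the authors used RMA and limma, with no versions given, and each deposited value is a log2 signal of 1 probe set. Sorted values showed that each set of 8 arrays was normalized separately. Of 18952 probe sets 13647 had 1 gene symbol in the platform annotation, and the brightest probe set of each of 11982 genes was used. Genes whose mean was under the 25th percentile of their own set in every group compared were left out. Changes were fitted with limma 3.58.1 (lmFit, contrasts.fit, eBayes, two-sided) in R 4.3.3, adjusted over all genes tested, and tested on simulated data. Annotation was joined in Python 3.11.15 (pandas 2.3.3) and figures were drawn with matplotlib 3.10.9. Arrays hold no counts, and their number limits the precision.

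Named genes were the 12 largest rises and falls outside the female classes past the threshold without overlap, the 6 largest rises of each female class, up to 4 called members per list, a panel of 20 sugar, fat and sex genes, and the 6 largest differences past the threshold per comparison. Others were named after their values were seen. The members, gene lists, classes and tests were chosen with earlier results of these data known. Replicate numbers were not used to pair the arrays in the main fit. Only replicate 1 deviated most like its own number, which with 4 arrays a group cannot settle whether numbers share a source. Alternatives were other filters, normalizations, probe-set rules, variance priors, array weights, larger fits, left-out arrays or genes, and the female-limited mean as a term.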

Additional observations from a re-analysis of the deposited data

Results flagged for a closer look

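Within the groups of 4 arrays, 2 of 78 checks found 1 array far from the other 3, and chance gives about 1 in 20. Hex-C had its lowest HSD-ancestry array in replicate 4, at 10.13, with a gap of 0.896 of the group's range. The mean of the male-limited genes had its highest HSD-ancestry array in replicate 2, at 9.30, with a gap of 0.845 of the range, and the same array had the highest mean of female-limited genes.

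The change with ancestry differed between groups for 103 genes between HSD-fed and CD-fed F2 males, for 14 between F2 and F1 HSD-fed males and for 62 between HSD-fed F2 males and females, by limma's test of the difference. All genes named below are female-limited by the probe set used except lncRNA:CR32368, which is unbiased. The other probe sets of lola had sex differences of -1.18 to 1.63 in CD-fed F0 flies. Against CD-fed F2 males the differences in change were 3.84 for dhd, 2.59 for CycB, 2.43 for osk, 1.87 for Yp1, 1.82 for nanos and 1.72 for Yp2. Against HSD-fed F2 females they were 3.76 for dhd, 2.49 for osk, 2.43 for CycB, 1.88 for nanos, 1.85 for Yp2 and 1.80 for Yp1. Against HSD-fed F1 males they were 2.25 for CycB, 1.83 for Yp1, 1.78 for Yp2, 1.54 for Yp3, 1.02 for lola and 1.02 for lncRNA:CR32368. Of the genes named here, osk and nanos passed the brightness filter of the comparison with CD-fed F2 males through HSD-fed males of HSD ancestry alone.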

How the results depend on the processing

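The 22 genes called became 13 with a brightness filter at the 50th percentile, 68 in a fit of the 16 F2 male arrays, 320 in a fit of all 80 arrays and 91 with array weights. They became 5, all female-limited, with replicate 3 as the lone HSD-ancestry array, assumed to vary like the others. Without female-limited genes 1 was called, without both female classes 1, and with the female-limited mean as a term 0. With 1 array left out the count ran from 8 to 31. Genes outside the female classes, 3 in the report, numbered 20, 128 and 43 in the 16-array, 80-array and weighted fits, 8 with a trended robust prior, 0 with replicate 3 alone, 1 and 1 without female genes, 0 with that term, and 1 to 6 with 1 array left out. Female-limited calls, 18 in the report, numbered 8 at the 50th percentile, 34, 39 and 33 in the larger and weighted fits, 5 with replicate 3 alone, 0 with that term, and 6 to 27 with 1 array left out. The female-limited median of 0.57 over tested genes became 1.62 at the 50th percentile, 0.33 with replicate 3 alone, 0.19 with a class limit of 3 and -0.0029 with the term, where osk had -0.10 and alphaTub67C -0.0026. It ran from 0.50 to 0.63 with 1 array left out. The term's own construction removes that class's mean. The cause of the other shifts was not tested. CD-ancestry arrays mattered most: without their replicate 3, 8 genes were called, 10 without replicate 2 and 11 without replicate 1 or 4. Without HSD-ancestry replicate 1 or 4 it was 12. With a replicate block 19 genes passed, 15 of them shared, and the block took the difference from CD-fed F2 males to 56 genes and that from F2 females to 27. The 14 genes differing from F1 males became 23 with the trended prior, and 7 without female-limited genes, which also left 7 of those differing from females. With 1 array left out the 3 counts ran from 65 to 148, 9 to 32 and 34 to 83. With 4 arrays a group, and dim female-limited probe sets near background, small changes cannot be measured.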
